A study of Mus musculus with 20 samples.

Results

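A set of 10 cell-adhesion genes with a role in lymphocyte homing was followed across donor T cells taken from the spleen of mice after allogeneic blood and marrow transplantation. They were the 9 integrin subunit genes *Itga4*, *Itgb7*, *Itgae*, *Itgb1*, *Itgal*, *Itgb2*, *Itga1*, *Itga2* and *Itgav*, and *Selplg*, which encodes the selectin ligand PSGL-1. These 10 genes were picked by name for their function, out of 17101 genes in the table of normalized counts. The choice was made with earlier results of these data known, so shares over all genes are given for scale only. All 10 passed the filter on low values in each comparison. Donors were C57BL/6J (B6) mice that lacked *Dnmt3a* in T cells (DNMT3a KO, CD4-Cre 2loxP) or their WT littermates, aged 6 to 12 weeks, and recipients were B6D2F1 (F1) mice aged 8 to 12 weeks. On day +10, CD4+ and CD8+ cells were sorted from recipients of KO cells and of WT cells, and CD4+CD8+ double-positive (DP) cells from recipients of KO cells. Each of the 5 groups held 4 libraries, numbered 1 to 4 for KO and 2, 3, 5 and 6 for WT. Equal numbers within a genotype were taken to mark subsets of 1 animal, which the titles do not spell out. Cre was driven by the *Cd4* promoter, so deletion was set in the thymus before the CD4+ and CD8+ lineages part. DP cells from recipients of WT donors were not used here.

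Integrins are surface receptors made of an α and a β chain, and the pairing decides what a T cell can hold on to. The β7 chain pairs with α4 to bind MAdCAM-1 on gut vessels and with αE to bind E-cadherin on epithelium, while β1 pairs with α4 to bind VCAM-1 and with α1 or α2 to bind collagen. The αL and β2 chains form LFA-1, the receptor for ICAMs that brings rolling cells to a firm stop, and PSGL-1 starts that rolling by binding selectins once its sugars have been built.

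Sequencing gave 37547651 to 46966318 reads on genes per library. Between 13203 and 14677 genes had reads, apart from KO DP replicate 3 with 11783. *Dnmt3a* itself was lower in KO than in WT libraries, without overlap, by -1.64 on the log2 scale in CD4+ cells and -1.20 in CD8+ cells (limma adjusted p = 1.26e-05 and 0.000654). The residual counts checked the labels but not the extent of deletion. The sorted subsets carried their defining genes: *Cd4* stood at 44804 to 74386 in CD4+ libraries, 8758 to 15351 in DP libraries and at most 458 in CD8+ libraries. *Cd8a* was at least 41594 in CD8+ and DP libraries and at most 586 in CD4+ libraries, except KO CD4+ replicate 1, where it reached 3771 and *Cd8b1* 4515. In bulk RNA of this kind, fewer cells of a type and less RNA per cell cannot be told apart. Where nothing else is said, log2 fold changes are differences of mean log2(normalized count + 1), tested with limma across all genes at an adjusted p of 0.05.

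DNMT3a adds methyl groups to cytosine in CG pairs, so the CG pairs at the start of the genes that differed most are of interest, although methylation was not analysed here. RefSeq gave a window of 250 bases before to 50 after the start (build GRCm38.p6) for 6 of the 10 genes, and not for *Itgae*, *Itgal*, *Itgb2* and *Selplg*. For *Itgb7* (span up to 102233405) and *Itgav* (span from 83722303) the window lies inside the gene span, so the start used was not the outermost one. Windows are shown for *Itgb7*, *Itga1* and *Itga2*, which rose in KO cells, and for their partner chains *Itga4* and *Itgb1*. Each reads 5′ to 3′ on the strand of the gene, with CG pairs in capitals. They lie at chr15:102231886-102232185 on the minus strand for *Itgb7*, at chr13:115101915-115102214 and chr13:114932051-114932350 on the minus strand for *Itga1* and *Itga2*, at chr2:79255176-79255475 on the plus strand for *Itga4* and at chr8:128685404-128685703 on the plus strand for *Itgb1*.
Itgb7: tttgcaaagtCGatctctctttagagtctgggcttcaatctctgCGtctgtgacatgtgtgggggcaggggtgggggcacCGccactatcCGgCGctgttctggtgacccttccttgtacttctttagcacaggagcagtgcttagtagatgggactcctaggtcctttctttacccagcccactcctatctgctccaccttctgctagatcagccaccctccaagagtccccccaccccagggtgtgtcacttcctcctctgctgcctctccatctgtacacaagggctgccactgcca
Itga1: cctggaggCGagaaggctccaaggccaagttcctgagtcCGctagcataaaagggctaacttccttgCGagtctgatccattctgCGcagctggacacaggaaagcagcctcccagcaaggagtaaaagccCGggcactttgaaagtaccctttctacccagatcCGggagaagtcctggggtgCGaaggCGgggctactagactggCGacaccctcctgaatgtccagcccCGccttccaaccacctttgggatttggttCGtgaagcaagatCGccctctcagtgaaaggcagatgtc
Itga2: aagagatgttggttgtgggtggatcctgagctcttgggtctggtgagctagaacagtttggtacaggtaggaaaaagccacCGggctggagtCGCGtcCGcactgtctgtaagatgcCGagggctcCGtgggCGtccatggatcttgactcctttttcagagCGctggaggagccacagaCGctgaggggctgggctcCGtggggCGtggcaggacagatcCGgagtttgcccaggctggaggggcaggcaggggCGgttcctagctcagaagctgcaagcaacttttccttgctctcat
Itga4: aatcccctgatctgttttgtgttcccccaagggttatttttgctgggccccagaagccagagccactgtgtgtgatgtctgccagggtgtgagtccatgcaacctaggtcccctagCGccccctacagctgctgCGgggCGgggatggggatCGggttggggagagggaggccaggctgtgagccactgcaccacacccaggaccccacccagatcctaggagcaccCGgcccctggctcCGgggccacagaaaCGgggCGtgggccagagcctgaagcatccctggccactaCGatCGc
Itgb1: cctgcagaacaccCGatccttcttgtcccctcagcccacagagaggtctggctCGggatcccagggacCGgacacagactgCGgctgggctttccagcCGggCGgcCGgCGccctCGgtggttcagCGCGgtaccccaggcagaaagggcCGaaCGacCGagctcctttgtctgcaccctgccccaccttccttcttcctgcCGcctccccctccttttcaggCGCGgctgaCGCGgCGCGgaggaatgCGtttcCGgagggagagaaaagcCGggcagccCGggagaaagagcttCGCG
The *Itgb7* window held 5 CG pairs, below the median of 7 over 32851 promoter windows of 300 bases, of which 94.6% held at least 1. *Itga4* had 10, *Itga1* 12 and *Itga2* 13. The windows of *Itgb1* with 27 and *Itgav* with 24 were above the median as well, and that of *Itgb1* exceeded 84.5% of windows. The genes that rose in KO cells thus included both the poorest of these 6 windows and windows above the median.

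The genes spanned a wide range of expression. Divided by exon length (RefSeq, per kilobase) and averaged over 20 libraries, *Itgb7* reached 18096 normalized counts per kilobase, *Selplg* 17176, *Itgb2* 15818, *Itgal* 12602, *Itgb1* 10363 and *Itga4* 4611. These 6 exceeded at least 94.1% of 11791 genes. *Itgav* (403), *Itga1* (222), *Itga2* (62.9) and *Itgae* (56.1) were far lower, and *Itgae* exceeded 22.3% of genes. The most steady members were the LFA-1 chains, whose highest library held 1.48 times (*Itgb2*) and 1.57 times (*Itgal*) the count of the lowest, against 12.5 times for *Itgae* and 8.69 times for *Itga2*.

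**Figure D1:**
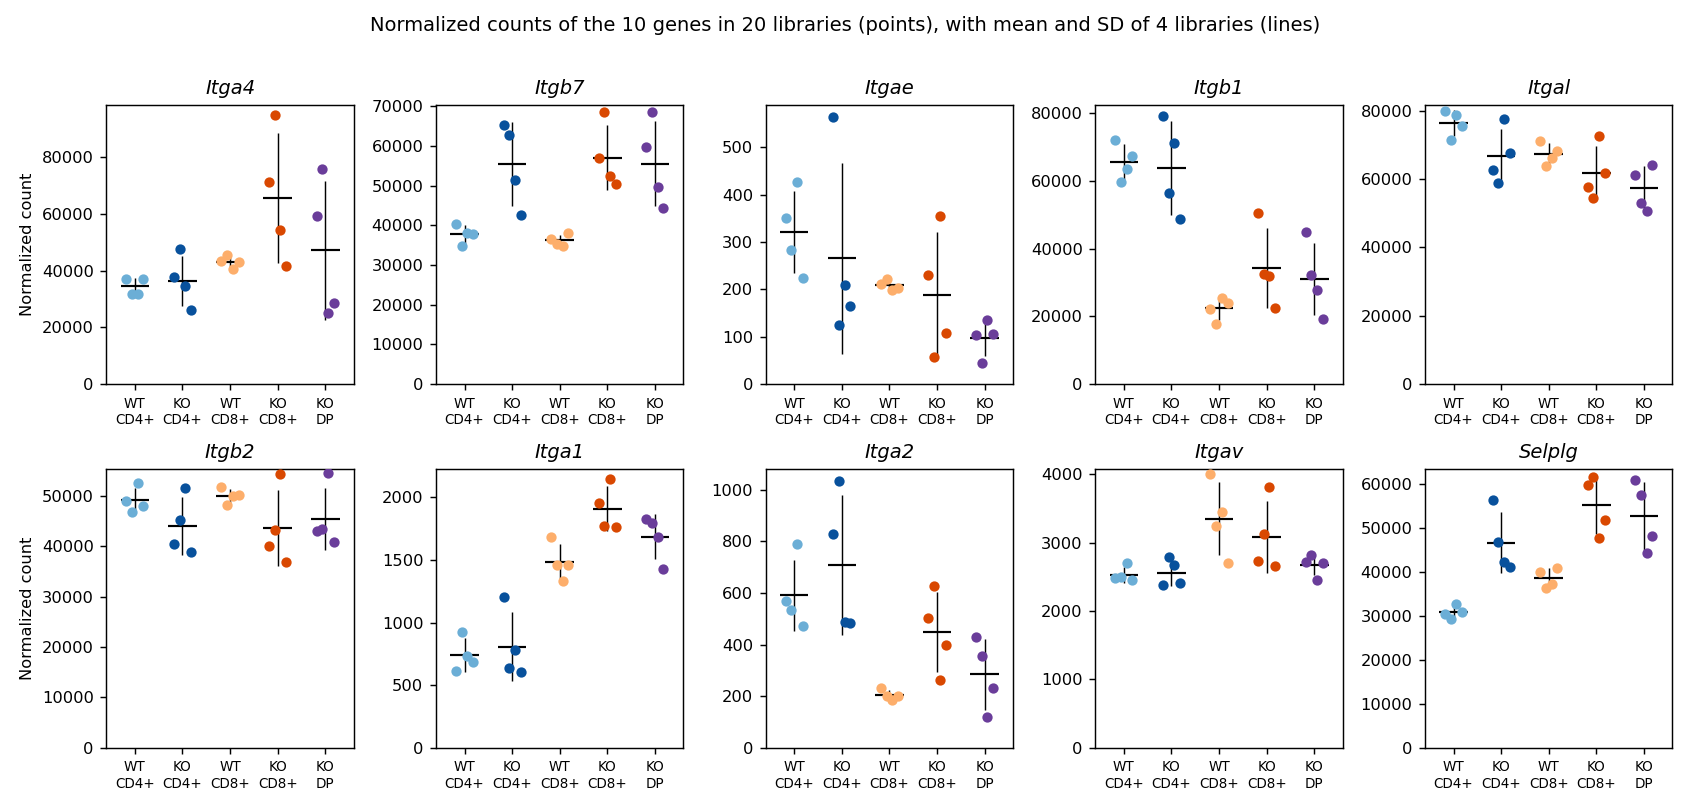
Normalized counts (linear axis from 0) of the 10 genes, 1 panel per gene, in WT and KO CD4+, WT and KO CD8+ and KO DP libraries; points are libraries, horizontal lines means and vertical lines SD of 4 libraries. The KO points of *Itgb7* and *Selplg* sit above all WT points of the same subset, and *Itgb1* falls from CD4+ to CD8+ cells.

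Loss of *Dnmt3a* was accompanied by higher *Itgb7* and *Selplg* in both subsets, and in CD8+ cells also by higher *Itga2* and *Itga1*. In CD4+ cells, 2 of the 10 genes passed the test, both higher in KO, where 18.4% of 12391 genes passed and 8.59% passed as higher. In CD8+ cells, 4 passed, all higher in KO, where 25.2% of 12383 genes passed and 12.6% passed as higher. The same genes were those whose KO and WT libraries did not overlap, 2 of 10 in CD4+ cells (25.6% of all genes) and 4 of 10 in CD8+ cells (30.6%). The median log2 fold change of the 10 genes was 0.03 in CD4+ and 0.44 in CD8+ cells, against -0.05 and -0.04 over all genes tested. Scaling each library to a common 75th percentile shifted the median of all genes to -0.16 and -0.15, and cut the calls higher in KO from 1064 of 2274 to 475 of 2624 in CD4+ cells and from 1566 of 3118 to 689 of 2941 in CD8+ cells. Under that scaling *Itgb7* and *Selplg* stayed higher past the threshold in both subsets and *Itga2* in CD8+ cells, while *Itga1* did not (adjusted p = 0.102).

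**Figure D2:**
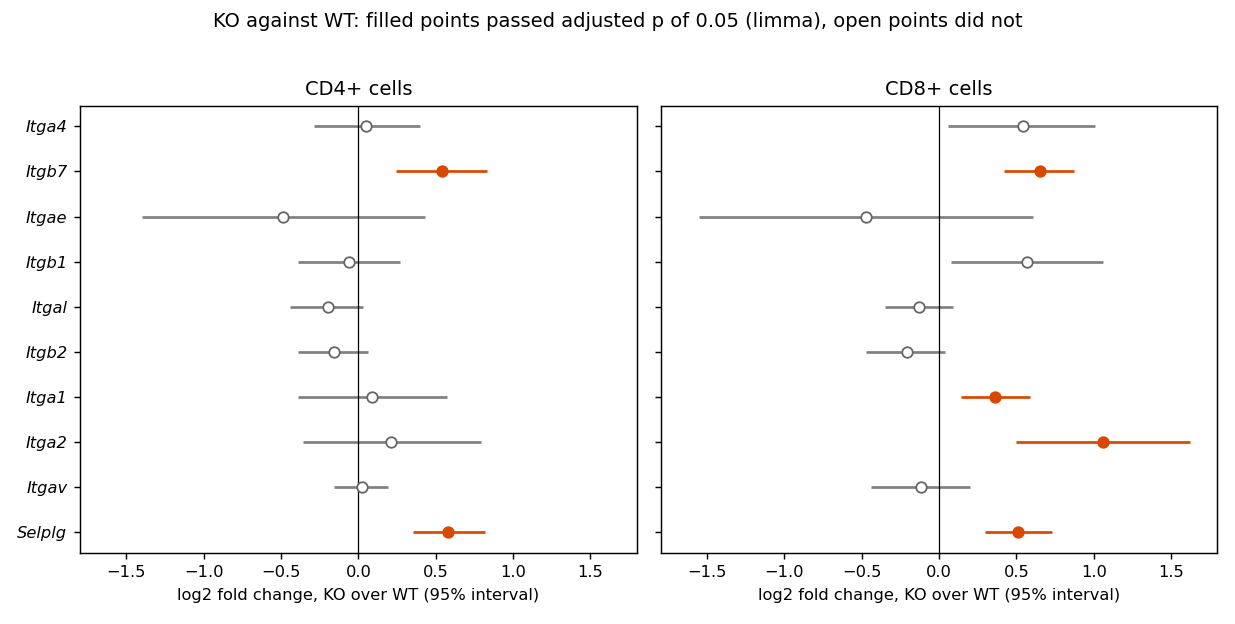
Log2 fold changes, KO over WT, of the 10 genes in CD4+ cells (left) and CD8+ cells (right), with 95% intervals from limma on 4 against 4 libraries. Filled points passed an adjusted p of 0.05; *Itgb7* and *Selplg* did so in both panels, *Itga1* and *Itga2* in CD8+ cells, and no gene did so on the negative side.

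*Itgb7* (chromosome 15, 102215994 to 102233405) encodes the β7 chain shared by both gut-homing integrins. In CD4+ cells its normalized counts were 65345, 62648, 51353 and 42579 in KO replicates 1 to 4 and 40380, 34652, 38095 and 37726 in WT replicates 2, 3, 5 and 6. All KO libraries lay above all WT libraries, KO replicate 4 by little. The log2 fold change was 0.54 (SE 0.13, limma adjusted p = 0.0233), a 1.45-fold difference. This call did not pass when KO CD4+ replicate 1 (adjusted p = 0.0558), the library with *Cd8a* counts, or WT CD4+ replicate 3 (0.0718), 5 (0.0595) or 6 (0.0685) was left out, nor after quantile normalization (0.0842), and the log2 fold change remained at 0.36 or more.

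In CD8+ cells the difference in *Itgb7* was wider. KO libraries held 56852, 68527, 52417 and 50296 normalized counts and WT libraries 36507, 35326, 34896 and 38093, so that the lowest KO library stood well above the highest WT library. The log2 fold change was 0.65 (SE 0.10, limma adjusted p = 0.0033), a 1.56-fold difference, and it passed in 8 of 8 fits that left out 1 library. DP libraries, at 59680, 68407, 49610 and 44365, spread over much the same range as KO CD8+ libraries. In the order of means (KO CD8+, KO DP, KO CD4+, WT CD4+, WT CD8+), the libraries of neighbouring groups overlapped except at the step from KO CD4+ to WT CD4+.

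The α partners of β7 did not follow it in the same way. *Itga4* (chromosome 2, 79255426 to 79333114) encodes α4, and its exons overlap *Cerkl* on the opposite strand. The libraries were strand-specific, but how far the counts keep both genes apart was not tested. In WT cells it was tightly held, at 37060, 31814, 31852 and 37141 normalized counts in CD4+ and 43531, 45464, 40540 and 43071 in CD8+ libraries. In KO CD8+ libraries it spread from 41686 in replicate 4 through 54308 in replicate 3 and 71361 in replicate 1 to 94662 in replicate 2, and KO CD4+ libraries ranged from 26242 to 47597. KO and WT overlapped in both subsets. KO over WT, the log2 fold change came to 0.05 (95% interval -0.29 to 0.40, limma adjusted p = 0.822) in CD4+ cells and 0.54 in CD8+ cells (0.06 to 1.01, adjusted p = 0.0913). The CD8+ value passed without KO CD8+ replicate 4 (0.73, adjusted p = 0.0211) and by DESeq2 (adjusted p = 0.0163).

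*Itgae* (chromosome 11, 73090505 to 73147449) encodes αE, known as CD103, a marker of T cells lodged in epithelium. Its counts were low in these splenic cells. WT CD4+ libraries held 224 to 426 normalized counts and WT CD8+ libraries 199 to 223, while KO CD4+ libraries held 563, 125, 209 and 165, KO CD8+ libraries 230, 57.6, 356 and 107 and DP libraries 103, 45.1, 135 and 105. Replicate 2 was the lowest of each KO subset, and groups neighbouring in the order of means overlapped throughout. The log2 fold changes of KO over WT, -0.49 in CD4+ (95% interval -1.40 to 0.43) and -0.47 in CD8+ cells (-1.55 to 0.61), did not pass (limma adjusted p = 0.413 and 0.491), and the intervals allow a more than 2-fold loss as well as a gain. Leaving out 1 library gave CD4+ values from -0.94 to -0.21, the former without KO CD4+ replicate 1, the library with *Cd8a* counts (adjusted p = 0.0551). The CD8+ values then ran from -0.88 to -0.02, the latter without KO CD8+ replicate 2.

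The balance of both α chains was read as the share of *Itgae* in the sum of *Itga4* and *Itgae* per kilobase, which needs no scaling between libraries. It was 1.86% ± 1.28 in KO and 2.35% ± 0.736 in WT CD4+ cells, 0.817% ± 0.619 in KO and 1.22% ± 0.0218 in WT CD8+ cells and 0.723% ± 0.536 in DP cells (SD, n = 4 each). The α4 message was thus dominant in every group. No comparison of 6 passed a 2-sided exact permutation test after adjustment. The smallest p, 0.0286 (adjusted 0.171), was that of WT CD8+ against WT CD4+ cells, whose libraries did not overlap (1.19% to 1.24% and 1.52% to 3.31%). It is the smallest that 4 against 4 libraries can give, so a single separated comparison among 6 could not pass. The share was also lower in DP than in CD4+ cells in all 4 KO animals, by -1.14 percentage points on average (exact permutation p = 0.143, unpaired).

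Among the β1 integrins, the collagen-binding α chains rose in KO CD8+ cells. *Itga2* (chromosome 13, 114833081 to 114932100, minus strand) encodes α2, CD49b. Its normalized counts in CD8+ cells were 504, 627, 264 and 397 in KO and 232, 201, 186 and 201 in WT libraries, which did not overlap although KO replicate 3 came close. The log2 fold change was 1.06 (SE 0.25, limma adjusted p = 0.0154), 2.08-fold, and it passed in each of 8 fits without 1 library. In CD4+ cells the libraries overlapped, at 827, 1035, 488 and 485 in KO and 569, 532, 788 and 471 in WT, and the log2 fold change of 0.21 (95% interval -0.36 to 0.79) did not pass (adjusted p = 0.576). CD49b is also a platelet and NK cell antigen. The summed counts of 7 platelet markers were 124 to 218 in KO and 168 to 285 in WT CD8+ libraries, *Ncr1*, which defines NK cells, did not exceed 6.72 in either, and 7 NK-associated genes summed to 35586 to 43853 in KO and 49818 to 53294 in WT. *Nkg7*, which cytotoxic T cells also express, made up most of the latter (29770 to 40864 in KO and 44610 to 47076 in WT). *Klrb1c*, the NK1.1 gene of the same list, went the other way without overlap, at 672 to 3066 in KO and 70.1 to 312 in WT CD8+ libraries. The part of NK cells in the *Itga2* difference was not tested.

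*Itga1* (chromosome 13, 114958079 to 115101964, minus strand) encodes α1, CD49a, and lies 25978 bases from *Itga2*. In CD8+ cells its counts were 1955, 1772, 2148 and 1765 in KO and 1684, 1463, 1331 and 1460 in WT libraries. The groups did not overlap, but the gap was narrow, and the log2 fold change was 0.36 (SE 0.10, limma adjusted p = 0.0274). It no longer passed without WT CD8+ replicate 3 (adjusted p = 0.0747), 5 (0.0860) or 6 (0.0766), nor in a fit of all 20 libraries together (0.163). In CD4+ cells *Itga1* was 1207, 639, 782 and 605 in KO and 613, 926, 734 and 686 in WT libraries, with a log2 fold change of 0.09 (95% interval -0.39 to 0.57). Its highest CD4+ value was that of KO replicate 1, the library with 3771 counts of *Cd8a*, and the part of CD8+ cells in that value was not tested.

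*Itgb1* (chromosome 8, 128685654 to 128733579) encodes the β1 chain that pairs with α1, α2 and α4. In CD4+ cells it was at 72041, 59674, 63437 and 67424 normalized counts in WT and 79338, 56341, 71403 and 48708 in KO libraries, which overlapped, with a log2 fold change of -0.06 (95% interval -0.39 to 0.27). In CD8+ cells KO libraries held 50527, 32513, 31849 and 22405 and WT libraries 22281, 17632, 25463 and 24093. KO replicate 4 lay among the WT libraries and the other three above them. The log2 fold change of 0.57 (95% interval 0.08 to 1.06) missed the threshold (limma adjusted p = 0.083), but passed without KO CD8+ replicate 4 (0.76, adjusted p = 0.0273) and by DESeq2 (adjusted p = 0.0171).

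The chains of LFA-1 and αV did not rise. *Itgal* (chromosome 7, 127296139 to 127335137), which encodes αL, was at 62524, 58893, 77597 and 67480 in KO and 79800, 71529, 78768 and 75396 in WT CD4+ libraries, and at 54495 to 72693 in KO and 63654 to 71009 in WT CD8+ libraries. *Itgb2* (chromosome 10, 77530329 to 77565708), which encodes β2, was at 38854 to 51579 in KO and 46802 to 52507 in WT CD4+ libraries and at 36875 to 54278 and 48134 to 51657 in CD8+ libraries. KO means were the lower ones in these 4 contrasts, and KO replicate 3 was the highest KO library in each of them. The log2 fold changes were -0.20 (95% interval -0.44 to 0.03) and -0.13 (-0.35 to 0.09) for *Itgal* and -0.16 (-0.39 to 0.06) and -0.21 (-0.47 to 0.04) for *Itgb2* in CD4+ and CD8+ cells, with limma adjusted p from 0.190 to 0.344.

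Whether these small LFA-1 differences passed turned on the scaling. After quantile normalization all 4 passed as lower in KO, with log2 fold changes of -0.45 and -0.36 for *Itgal* (limma adjusted p = 0.0173 and 0.0459) and -0.36 and -0.43 for *Itgb2* (0.0485 and 0.0243). Under a common 75th percentile *Itgal* passed in CD4+ cells (adjusted p = 0.0496) and *Itgb2* in CD8+ cells (0.0489). *Itgb2* in CD8+ cells also passed without KO CD8+ replicate 3 (-0.32, adjusted p = 0.0139). *Itgav* (chromosome 2, 83722303 to 83806917) encodes αV, which binds RGD-containing matrix proteins. It held 2387 to 2784 normalized counts in KO and 2455 to 2702 in WT CD4+ libraries and 2652 to 3809 and 2709 to 3999 in CD8+ libraries, and its log2 fold changes of 0.02 (95% interval -0.16 to 0.19) and -0.12 (-0.44 to 0.20) did not pass.

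*Selplg* (chromosome 5, 113817798 to 113832528, minus strand) was the member whose difference between genotypes held in the most settings. In CD4+ cells KO libraries held 56297, 46788, 42129 and 40969 normalized counts and WT libraries 30438, 29340, 32633 and 30821. In CD8+ cells KO libraries held 59753, 61452, 47587 and 51806 and WT libraries 39818, 36251, 37132 and 40875. Every KO library lay above every WT library of its subset. The gain was 1.5-fold in CD4+ cells (0.58 in log2 units, SE 0.11, limma adjusted p = 0.00823) and 1.43-fold in CD8+ cells (0.51, SE 0.10, adjusted p = 0.00647), and both passed in 8 of 8 fits that left out 1 library. Means fell in the order KO CD8+, KO DP, KO CD4+, WT CD8+ and WT CD4+. The 3 KO groups overlapped with their neighbours, and both steps below KO CD4+ were without overlap.

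Counts of marker genes of other cell types were set beside these differences. Summed over 11 myeloid genes, CD4+ libraries held 1332 to 3467 in KO (median 1453) and 3022 to 3693 in WT (median 3520). CD8+ libraries held 2783 to 6065 in KO and 3719 to 6457 in WT, of which *Itgam* supplied 1157 to 4216 and 1154 to 1962. The median log2 fold change of the 11 genes, KO over WT, was -2.18 in CD4+ and -1.81 in CD8+ cells. Past the threshold, 0 rose and 2 fell in CD4+ cells, and 0 passed in CD8+ cells. Sums of 2 erythroid genes were 0.0 to 228 in KO and 158 to 724 in WT CD4+ libraries. In CD8+ libraries they were 2.06 to 185 and 142 to 506. The 12 T cell genes summed to 246139 to 335079 in these libraries. KO DP replicate 3 stood apart, with the highest sum of myeloid (7578), NK-associated (69124) and T cell genes (449663) of all libraries. The sum of 7 B cell genes was higher in KO, 1681 to 2753 against 427 to 543 in CD8+ cells, and *Cd79b* made up 1413 to 2245 of it, while *Ms4a1* did not exceed 1.85 there. In CD4+ cells the same sum was 1650 to 2151 in KO and 1260 to 1693 in WT, and its genes differed in direction. *Cd79b* held 581 to 1073 counts in KO and 40.1 to 82.6 in WT CD4+ libraries, and *Cd79a* 48.8 to 90.1 and 1.94 to 13.4. *Cd22* held 775 to 1405 in KO and 1168 to 1626 in WT. Of 3 B cell genes tested in CD4+ cells, 2 rose and 0 fell. The sum of 7 stromal and endothelial genes was higher in KO CD8+ (2912 to 4947) than in WT CD8+ libraries (2403 to 2633), and *Pecam1* supplied 2811 to 4899 of it. It was also higher in KO CD4+ (5786 to 8630) than in WT CD4+ libraries (3780 to 5128). The part of such cells in the member values was not tested.

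The next question was whether the subsets themselves differ in these genes. In WT cells, 8 of the 10 genes differed between CD8+ and CD4+ cells, 4 higher and 4 lower in CD8+ cells, where 44.5% of 12559 genes passed (22.2% higher and 22.3% lower), and the libraries of 8 did not overlap (41.8% of all genes). *Itgb1* was lower in CD8+ cells by -1.56 on the log2 scale (SE 0.10, limma adjusted p = 3.51e-08) and *Itga2* by -1.50 (SE 0.15, adjusted p = 3.55e-06) (0.338-fold and 0.354-fold the CD4+ level). *Itga1* was 2.02-fold higher in CD8+ cells (log2 fold change 1.01, SE 0.11, adjusted p = 1e-05), so the collagen receptors α1 and α2 lay on opposite sides. Smaller differences were higher *Itgav* (0.39), *Itga4* (0.33) and *Selplg* (0.32) and lower *Itgae* (-0.58) and *Itgal* (-0.18) in CD8+ cells. *Itgae* did not pass without WT CD4+ replicate 5 (adjusted p = 0.0556) and *Itgal* not after quantile normalization (0.0906). In the joint fit of 20 libraries *Itga4* (0.556), *Itgae* (0.535), *Itgal* (0.363) and *Selplg* (0.0946) did not pass. *Itgb7* (-0.06, 95% interval -0.17 to 0.06) and *Itgb2* (0.03, -0.08 to 0.13) did not pass, with intervals that leave room for little difference.

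In KO cells, the same contrast reached significance for *Itga1* only, at 1.29 (SE 0.21, limma adjusted p = 0.0101), where 4.22% of 12189 genes passed and 1.48% passed as higher, and its libraries were the only ones of the 10 without overlap (10.1% of all genes). Subsets of the same animal varied together, however, and with the animal as a term 5 of the 10 genes passed, where 18.9% of all genes did. *Itga4* was then higher in CD8+ cells by 0.81 (SE 0.08, limma adjusted p = 0.000135), *Itgb1* lower by -0.93 (SE 0.09, 0.00017), *Itga2* lower by -0.65 (SE 0.13, 0.00878) and *Selplg* higher by 0.25 (SE 0.07, 0.0377), beside *Itga1* (0.000292). The directions were those seen in WT cells for these 5 genes.

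**Figure D3:**
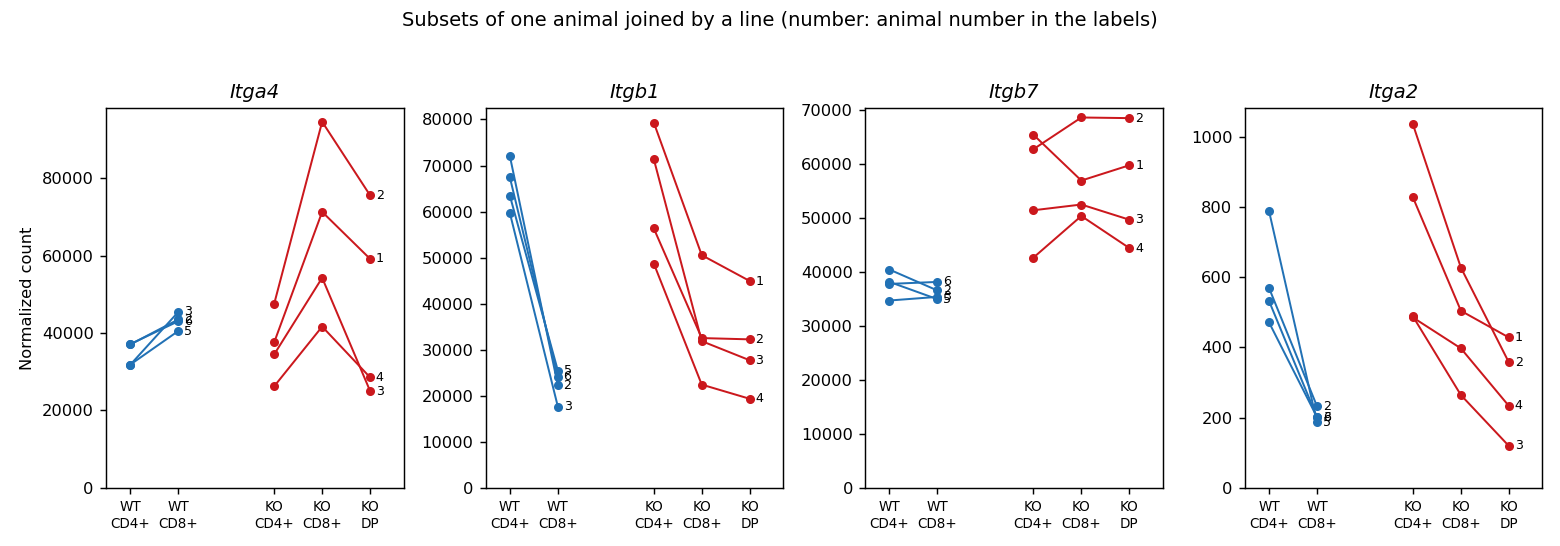
Normalized counts (linear axis from 0) of *Itga4*, *Itgb1*, *Itgb7* and *Itga2*, with the subsets of 1 animal joined by a line, WT in blue and KO in red; the number beside each line is the animal number. *Itgb1* falls from CD4+ to CD8+ cells in all 8 animals, to 17632 to 25463 counts in WT and 22405 to 50527 in KO. *Itga4* climbs in all 8, more steeply in each KO animal than in any WT animal and most steeply in KO animals 1 and 2.

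Whether the effect of genotype differed between CD8+ and CD4+ cells was tested directly. Without the animal as a term, 0 of the 10 genes passed in limma, as against 0.0161% of 12446 genes, although *Itgb1* (0.63, unadjusted p = 0.0407) and *Itga2* (0.85, unadjusted p = 0.0431) had the smallest unadjusted p, and 0 passed in edgeR and DESeq2. With the animal as a term, *Itga4* (0.48, SE 0.10) and *Itgb1* (0.63, SE 0.13) passed, each at a limma adjusted p of 0.0409, where 1.39% of all genes did. The KO minus WT difference was for both genes more positive in CD8+ than in CD4+ cells. For *Itgb7* (0.11, 95% interval -0.26 to 0.47) and *Selplg* (-0.07, -0.38 to 0.23) no difference between the subsets was detected.

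DP cells were compared with both single-positive subsets from recipients of KO cells. Against KO CD8+ cells, 0 of the 10 genes passed and none was without overlap, where 0.00823% of 12153 genes passed and 2.7% did not overlap. In this unpaired limma fit, unadjusted p values under 0.05 numbered 0 among the 10 as well, the smallest being 0.11 for *Itga2*, and edgeR and DESeq2 also called 0. Without KO DP replicate 3, the library with the fewest genes detected, 0 passed too, and the value of *Itga2* moved to -0.37. Log2 fold changes over all libraries lay between -0.74 for *Itga2* (95% interval -1.68 to 0.20) and 0.06 for *Itgb2* (-0.32 to 0.44). The intervals of *Itgb7* (-0.46 to 0.37), *Selplg* (-0.45 to 0.30) and *Itga1* (-0.49 to 0.12) were among the narrower ones, and that of *Itgae* (-2.03 to 0.58) was the widest. With subsets of equal number taken as 1 animal, *Itga4*, *Itga2*, *Itgae* and *Itgb1* were lower in DP than in CD8+ cells in all 4 animals. The gap was very small for *Itgae* in animal 4 (105 and 107 counts) and *Itgb1* in animal 2 (32233 and 32513). The share of all genes with such an order was not computed. With the animal as a term, 0 of the 10 genes passed either (0.00823% of all genes), but the 95% intervals lay below 0 for *Itga4* (-0.95 to -0.18, limma adjusted p = 0.405), *Itga2* (-1.18 to -0.29, 0.405) and *Itgae* (-1.45 to -0.01, 0.405).

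Against KO CD4+ cells, *Itga1* was higher in DP cells by 1.11 (SE 0.22, limma adjusted p = 0.0362), where 1.95% of 12175 genes passed and 0.682% passed as higher. DP libraries held 1829, 1798, 1688 and 1431 normalized counts and KO CD4+ libraries 1207, 639, 782 and 605. The call did not pass in 7 of 8 fits that left out 1 library, with adjusted p from 0.0519 without KO DP replicate 4 to 0.113 without KO CD4+ replicate 4, and passed without KO CD4+ replicate 1. Without KO DP replicate 3 the log2 fold change remained at 1.11 (adjusted p = 0.0533). *Itgb1* was at 44911, 32233, 27690 and 19321 in DP libraries, all below the KO CD4+ libraries, as was *Itga2* at 428, 357, 119 and 233, so that 3 of the 10 genes were without overlap (11.2% of all genes). With the animal as a term, *Itgb1* (-1.08, limma adjusted p = 0.00921), *Itga2* (-1.39, 0.0152) and *Itga1* (0.0121) passed, where 7.06% of all genes did. *Itgb7* (0.00, 95% interval -0.45 to 0.45) and *Selplg* (0.18, -0.21 to 0.56) showed no detectable difference between DP and KO CD4+ cells.

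Variation between KO animals was larger than between WT animals, and for some of the 10 genes the order of animals recurred across subsets. The SD of log2 values was larger in KO than in WT for 10 of the 10 genes in CD4+ cells and 9 in CD8+ cells, a property shared by 80.8% and 88.9% of all genes tested. The same animal was highest in all 3 KO subsets for 3 of the 10 genes and lowest for 5, with 2 genes in both counts. *Itgal*, *Itga2*, *Itgav* and *Selplg* had neither, and the share over all genes was not computed. *Itgb1* was highest in animal 1 and lowest in animal 4 in all 3 KO subsets. *Itgb2* kept 1 order of animals, 3, 2, 1 and 4, in all of them. *Itga4* was highest in animal 2 in each subset, and *Itgb7* and *Itga1* lowest in animal 4. Across all 20 libraries, *Itgb7* and *Selplg* had a Pearson r of 0.866, or 0.802 once group means were removed, and *Itga4* and *Itgb7*, the chains of 1 receptor, 0.573 and 0.860. Libraries taken as 1 animal would share a donor and recipient, so these values are descriptions over fewer than 20 independent points.

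The genes whose pattern was most like that of each member that differed between genotypes were found by Pearson r of log2 values over 20 libraries among 10709 genes. For *Itgb7* they were *Pitpna* (0.972), *Sdcbp* (0.970) and *Gnai2* (0.968), and for *Selplg* *Txndc5* (0.970), *Gpd1l* (0.958) and *Def6* (0.957). *Itga1* was most like *Cd8b1* (0.946), *Cd8a* (0.931) and *Klrc1* (0.931). After removal of group means these values were 0.700, 0.556 and 0.608. *Itga2* was most like *Slco3a1* (0.944), *Smad3* (0.923) and *Rxra* (0.922).

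Most of the remaining integrin chains did not pass. Of 13 other subunits tested in CD4+ cells, 1 rose and 1 fell, where 18.4% of all genes passed. *Itga6*, the laminin-binding α6, rose from 2260 ± 171 to 3407 ± 401 normalized counts (SD, n = 4; log2 fold change 0.59, limma adjusted p = 0.0059), and in CD8+ cells from 1903 ± 118 to 3306 ± 715 (0.77, adjusted p = 0.00722). *Itga2b*, the platelet αIIb, fell from 83.2 ± 25.0 to 20.2 ± 4.29 in CD4+ cells (-1.96, adjusted p = 0.00852). The summed platelet markers, among which it is counted, were 93.3 to 190 in KO and 130 to 250 in WT. Of 4 platelet markers tested there, *Itga2b* included, 3 fell and 0 rose (median -2.67). *Gp1ba* held 43.0 to 163 counts in KO and 35.9 to 52.3 in WT. The part of platelets in the *Itga2b* difference was not tested. In the joint fit of 20 libraries the CD4+ calls of *Itga6* and *Itga2b* did not pass. Of 14 subunits tested in CD8+ cells, 1 rose and 2 fell, where 25.2% of all genes passed. Those that fell were *Itga10* (-1.43, limma adjusted p = 0.0366) and *Itgb4* (-1.73, 0.0186), from WT means of 54.6 and 35.9 counts. Neither fall passed after quantile normalization or in the joint fit. The list medians were -0.13 in CD4+ and -0.56 in CD8+ cells (0.02 and -0.28 after quantile normalization), against -0.05 and -0.04 over all genes.

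A further list held adaptors that switch integrins on and tie them to the cytoskeleton. Of 32 tested, 7 rose and 2 fell in KO CD4+ cells, where 18.4% of all genes passed, and 11 rose and 3 fell in KO CD8+ cells, where 25.2% did, with medians of 0.15 and 0.13 against -0.05 and -0.04 over all genes. The excess of rises in CD4+ cells turned with the scaling, to 2 rises and 3 falls after quantile normalization and 1 and 3 under a common 75th percentile (3 and 1 in the joint fit), whereas CD8+ cells kept 9 and 3, and 7 and 3. In CD8+ cells *Cd47*, an integrin-associated protein, rose from 13319 ± 688 to 21141 ± 4224 (log2 fold change 0.64, limma adjusted p = 0.00942). *Cyth1*, a β2 regulator (0.59, 0.00572), and *Stk4*, the kinase MST1 (0.52, 0.00163), also rose. *Sipa1*, which turns off the integrin activator Rap1, fell from 20716 ± 1292 to 14134 ± 1712 (-0.56, 0.00423). These 4 passed in 8 of 8 fits without 1 library. Of the other falls, that of *Rap1gap*, another Rap1 inhibitor, was seen in both subsets (-3.14 and -2.11, limma adjusted p = 0.0316 and 0.0208). Its means were low, at 53.4 counts in WT and 8.44 in KO CD4+ cells and 46.1 and 11.3 in CD8+ cells. *Sipa1* also fell in CD4+ cells (-0.29, limma adjusted p = 0.0449). *Sharpin* fell in CD8+ cells (-0.41, 0.0342), where its KO and WT libraries overlapped. In CD4+ cells 1 adaptor passed as lower in edgeR and 1 in the joint fit.

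In CD4+ cells the adaptors with the widest differences among those with a mean of at least 50 normalized counts were *Zyx* (0.67, limma adjusted p = 0.0223), *Cd47* (0.44, 0.0284), *Stk4* (0.33, 0.0209) and *Skap1* (0.30, 0.0375). Their calls were less secure. *Cd47* and *Skap1* each lost significance without KO CD4+ replicate 1 or any 1 of the 4 WT libraries (limma adjusted p up to 0.0883 and 0.107), *Zyx* without any 1 WT library (up to 0.0675) and *Stk4* without WT replicate 3 or 6 (up to 0.0669). After quantile normalization or under a common 75th percentile, *Cd47*, *Stk4* and *Skap1* did not pass. In the joint fit, *Zyx*, *Stk4* and *Skap1* did not pass.

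**Figure D4:**
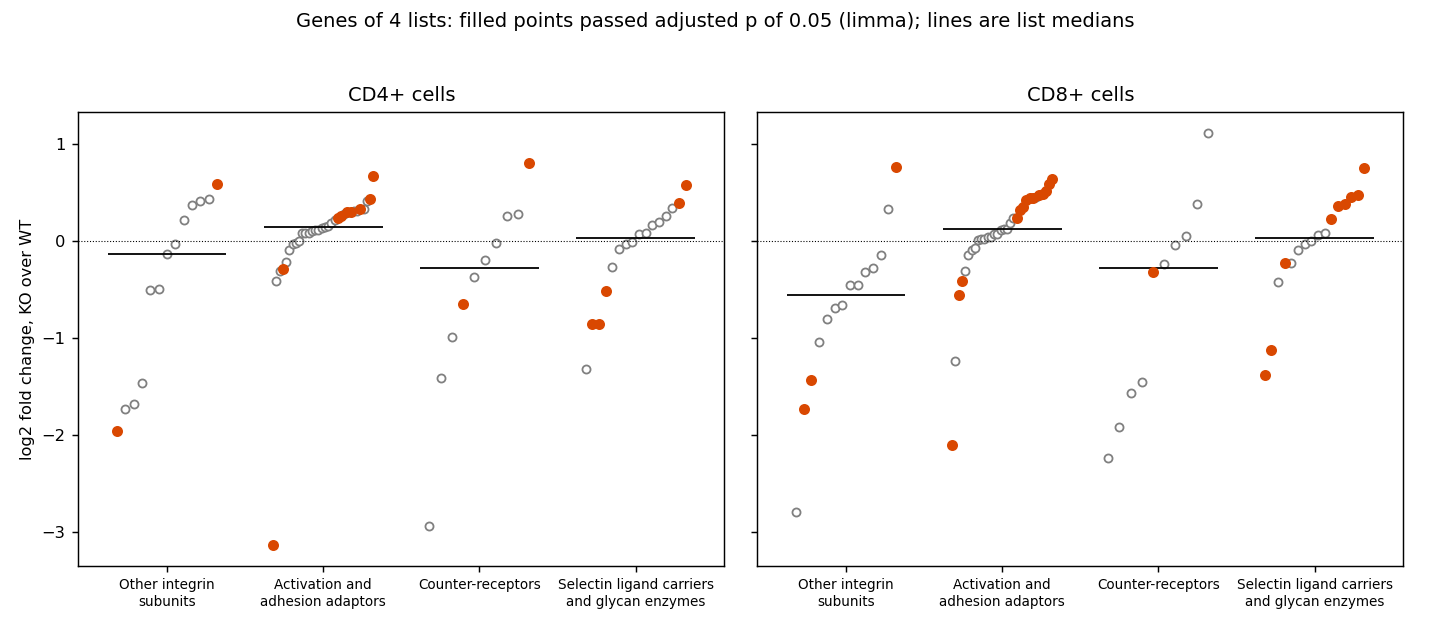
Log2 fold changes, KO over WT, of the genes of 4 lists in CD4+ cells (left) and CD8+ cells (right): other integrin subunits, activation and adhesion adaptors, counter-receptors, and selectin ligand carriers with glycan enzymes. Points are genes, filled where the adjusted p passed 0.05, and horizontal lines are list medians. In CD8+ cells, 11 of 32 adaptors and 6 of 16 carriers and glycan enzymes are filled above 0. Over all genes, 12.6% passed as higher there.

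On the side of the counter-receptors, *Icam1*, a ligand of LFA-1 that activated T cells carry themselves, fell in both subsets, from 5795 ± 424 to 3758 ± 871 in CD4+ (-0.65, limma adjusted p = 0.0142) and from 5291 ± 336 to 4242 ± 358 in CD8+ cells (-0.32, 0.0190). The CD4+ call was lost without WT replicate 6 (adjusted p = 0.0536) and the CD8+ call without WT replicate 2 (0.0625), 5 (0.0626) or 6 (0.0620). The CD8+ call was also lost in the joint fit of 20 libraries. *Icam1* was the 1 gene that fell among 10 counter-receptor genes tested in each subset.

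PSGL-1 binds selectins only when its glycans are finished, so carriers of selectin ligands and glycan enzymes in general were listed too. What each of them does to PSGL-1 in these cells was not tested. Of 16 tested, 2 rose and 3 fell in CD4+ cells, where 18.4% of all genes passed. In CD8+ cells 6 rose and 3 fell, where 25.2% of all genes passed. In the joint fit of 20 libraries, 1 rose and 0 fell in CD4+ cells, and 4 rose and 2 fell in CD8+ cells. The genes did not move as a block with *Selplg*. *B4galt1*, a galactosyltransferase, rose in both subsets (0.58 and 0.76, limma adjusted p = 0.0177 and 0.0116), and so did the tyrosine sulfotransferase gene *Tpst2* (0.39 and 0.23, 0.0168 and 0.0298). *Spn*, the carrier CD43, rose in CD8+ cells (0.48, limma adjusted p = 0.0148). *Gcnt1*, which builds the core 2 branch that bears the selectin-binding sugar, fell from 680 ± 98.3 to 389 ± 131 in CD4+ (-0.86, adjusted p = 0.0317) and from 2113 ± 259 to 1030 ± 420 in CD8+ cells (-1.12, 0.0137). The sulfotransferase gene *Chst2* fell in both (-0.86, 0.0311, and -1.38, 0.0356), and the sialyltransferase genes *St3gal1* in CD4+ (-0.51, 0.00599) and *St3gal4* in CD8+ cells (-0.23, 0.0456) fell in 1 subset each. In CD8+ cells *Gcnt1* and *B4galt1* passed in 8 of 8 fits without 1 library and *Spn* in all but that without WT replicate 5 (adjusted p = 0.0511). *Chst2* passed in 2 of 8 there, those without KO replicate 3 or 4 (adjusted p up to 0.0889 in the rest). It did not pass in edgeR or DESeq2, and *Spn* did not pass after quantile normalization. In CD4+ cells *St3gal1* passed in 8 of 8, *B4galt1* was lost without WT replicate 3 (0.0511) or 6 (0.0622), and *Gcnt1* and *Chst2* were lost without KO replicate 1 or any 1 WT library (up to 0.0909 and 0.0851). The CD4+ calls of *St3gal1*, *B4galt1*, *Gcnt1* and *Chst2* all failed in the joint fit of 20 libraries. Levels of the fucosyltransferase gene *Fut7*, which completes the selectin-binding sugar, differed by -0.01 (95% interval -0.57 to 0.54) and -0.09 (-0.61 to 0.43) and did not pass.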

How the data were processed

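Donor T cells were sorted from recipient spleens to a stated purity above 90%, and strand-specific poly(A) RNA libraries were sequenced. Per the submitters' processing notes, reads were aligned with STAR (2.7.2b) to GRCm38. The authors deposited 1 table of gene signal values, counts divided by DESeq2 size factors, with 1 column per library. All values gave back whole reads (100%, tolerance 1e-06 reads). The members and gene lists were chosen with earlier results of these data known. Libraries were grouped by their titles. Values were tested as log2(normalized count + 1) with limma 3.58.1 (R 4.3.3, trend, 2-sided) on the 2 groups compared, over genes with a mean of at least 10, with Benjamini-Hochberg adjustment over all genes tested and a threshold of 0.05. DESeq2 1.42.0 and edgeR 4.0.16 (quasi-likelihood) were run on the recovered reads. The code was tested on simulated data. Same-numbered subsets of 1 genotype were taken to come from 1 animal, and their deviations correlated (r from 0.271 to 0.538 in KO and 0.12 to 0.196 in WT). Alternatives were a pseudocount of 10, no filter, 2 other scalings, a joint fit of 20 libraries, the animal as a term and leaving out each library. Named list genes were the up to 4 with the widest differences past the threshold and a mean of at least 50, per list and subset. *Dnmt3a* was named as the targeted gene, and *Fut7* and the genes behind counts of 5 or fewer were added after their values were seen. Separate cultures or litters are not stated, so p-values cover the spread between these animals. Intervals are 95% limma intervals. Values of 2 further genes are not reported here.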

Additional observations from a re-analysis of the deposited data

Results flagged for a closer look

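*Itgav* in WT CD4+ replicate 5 stood apart from its group, at 2702 normalized counts against 2455 to 2492 in the other 3 libraries. It was the only such value among 50 combinations of gene and group examined with Dixon's criterion for 4 samples, which chance exceeds in about 1 of 20.

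The KO minus WT difference of *Itga4* was larger in CD8+ than in CD4+ cells by 0.48 on the log2 scale, and that of *Itgb1* by 0.63. Each passed with the animal as a term (limma adjusted p = 0.0409) and not without it (adjusted p = 0.929 and 0.75). Within animals, *Itga4* rose and *Itgb1* fell from CD4+ to CD8+ cells in all 8.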

How the results depend on the processing

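Numbers below are of members passing or, for a gene, log2 fold changes. KO and WT share the numbers 2 and 3, which mark different animals whose deviations hardly correlated (r from -0.0024 to 0.099 within a subset), so no pairing was assumed. With that replicate block, on 2 pairs of numbers, 0 members passed in CD4+ and 0 in CD8+ cells, and 26 and 89 of all genes. Among KO subsets and in the interaction, the block changed the number passing to 3 (DP against CD4+), 5 (CD8+ against CD4+) and 2 (interaction), as given above, and no other call. DP against CD4+ passed 2 members after quantile normalization, 0 in edgeR, 3 in DESeq2 and 3 in the joint fit. CD8+ against CD4+ passed 3 in DESeq2 and 2 in the joint fit for KO and 4 in the joint fit for WT. Directions turned, for genes that did not pass, in KO against WT CD4+ cells for *Itga4* (quantile -0.10, 75th percentile -0.06), *Itgb2* (block 0.01), *Itga1* (75th percentile -0.03, block -0.09) and *Itgav* (75th percentile -0.10), in DP against CD8+ cells for *Itgb2* (quantile -0.11) and in DP against CD4+ cells for *Itgb7* (quantile -0.17, 75th percentile -0.04) and *Itgb2* (quantile -0.13, 75th percentile -0.00). The cause was not tested. Calls over all genes moved by more than 1.5 times in the joint fit, from 2274 to 1304 (KO against WT CD4+), 3118 to 2017 (CD8+), 5592 to 1610 (WT CD8+ against CD4+), 514 to 885 (KO CD8+ against CD4+), 237 to 1459 (DP against CD4+) and 2 to 1 (interaction). They did so in DESeq2 for KO CD8+ against CD4+ (956), DP against CD4+ (728), DP against CD8+ (3 against 1) and the interaction (21), and for the interaction without a filter (7) and in edgeR (1).

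Leaving out 1 library at a time gave 1 to 2 members in KO against WT CD4+, 0 to 1 in DP against CD4+ and 1 to 2 in KO CD8+ against CD4+ cells, and a difference in the *Itgae* share, in percentage points, from -0.315 to 0.181 for DP against CD8+ cells, -1.09 to -0.0873 for KO against WT CD4+ (-0.487 with all libraries) and -0.68 to -0.183 for KO against WT CD8+ (-0.404), the share in the other 3 comparisons staying negative. Ranges that crossed 0 were, for KO against WT CD4+, *Itga1* -0.12 to 0.21, *Itga4* -0.08 to 0.20, *Itgav* -0.03 to 0.05 and *Itgb1* -0.17 to 0.06. For DP against CD4+ they were *Itga4* -0.03 to 0.50, *Itgb2* -0.05 to 0.12 and *Itgb7* -0.12 to 0.10, and for DP against CD8+ *Itgb1* -0.35 to 0.06, *Itgb2* -0.03 to 0.18, *Itgb7* -0.16 to 0.05 and *Selplg* -0.15 to 0.01. For KO CD8+ against CD4+ they were *Itgb2* -0.13 to 0.06 and *Itgb7* -0.07 to 0.14, and for the interaction *Itgae* -0.40 to 0.47, *Itgal* -0.01 to 0.15, *Itgb2* -0.16 to 0.03, *Itgb7* -0.01 to 0.19 and *Selplg* -0.13 to 0.02. Depth limits *Itgae* and *Itga2* most, at 45.1 and 119 counts in their lowest libraries.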
